A study of Mus musculus with 6 samples.

Results

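The Ly6 surface antigens examined here are 6 genes, Ly6a, Ly6c1, Ly6c2, Ly6d, Ly6e and Ly6i, chosen by name from 36870 distinct symbols in the deposited table. RNA-seq was performed on what the paper calls bone marrow mesenchymal stem cells (BMMSCs), plastic-adherent cells cultured from the marrow of mouse long bones. The control group had 3 libraries, and cells given siRNAs against Tet1 and Tet2 had 3. All 6 libraries came from the C57BL/6 strain, in medium with 20% serum, and the labels give passage p2 where the methods give the first passage. The labels and the siRNA methods name a non-targeting siRNA for the controls, whereas the RNA-sequencing methods call them vehicle-treated. Neither the labels nor the methods say whether libraries of a group came from separate mice or cultures, so the p-values measure the spread between these libraries, which may be technical.

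Ly6 proteins are small, disulfide-rich proteins, most of them held on the outer face of the cell by a glycolipid (GPI) anchor. Ly6a encodes Sca-1, widely used to sort mouse stem cells and mesenchymal stromal cells, and Ly6c1 and Ly6c2 encode the Ly6C antigens used to sort monocytes. Several Ly6 genes respond to interferons. TET enzymes oxidize 5-methylcytosine in DNA, a step in active demethylation.

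The 6 genes lie together on chromosome 15 (GRCm38, GENCODE M21 annotation), between positions 74762056 and 75111970. Ly6e, at 74955051 to 74959905, is on the plus strand, and the other members are on the minus strand. Ly6d lies at 74762056 to 74763620, Ly6i at 74979534 to 74983430, Ly6a at 74994877 to 74998031, Ly6c1 at 75044018 to 75048830 and Ly6c2 at 75108158 to 75111970. Ly6c1, Ly6c2 and Ly6a are related copies. Of the 100-base windows in the annotated transcripts of Ly6c1, 10.1% (178 of 1756) were also found in another gene, Ly6a or Ly6c2. The share was 5.81% for Ly6c2 (159 of 2737) and 1.45% for Ly6a (19 of 1311), and 0 for Ly6d, Ly6e and Ly6i. The sources used here do not say how reads matching several places were counted, so part of the values of these 3 copies could be exchanged between them.

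RefSeq promoter windows (GRCm38.p6, 250 bases before to 50 after the start) were used for 2 members, Ly6c1 and Ly6c2. They are shown with that of Ly6g, the neighbouring granulocyte antigen, because these copies have similar sequence but different levels in these cells. All are written 5′ to 3′ on the strand of the gene, at chr15:75048788-75049087 (minus) for Ly6c1, chr15:75111922-75112221 (minus) for Ly6c2 and chr15:75155011-75155310 (plus) for Ly6g. Within the stretch aligned to Ly6c1, capitals mark bases that differ from it or have no partner in it. The last 21 bases of the Ly6c2 window and the first 22 of the Ly6g window lie outside that stretch, were not compared and are in lower case.
Ly6c1: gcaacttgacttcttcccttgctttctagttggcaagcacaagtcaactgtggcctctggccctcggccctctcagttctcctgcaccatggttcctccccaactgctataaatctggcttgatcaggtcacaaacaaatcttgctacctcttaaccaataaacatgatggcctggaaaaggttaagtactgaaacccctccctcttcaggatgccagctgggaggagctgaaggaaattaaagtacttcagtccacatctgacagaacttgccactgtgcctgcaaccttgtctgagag
Ly6c2: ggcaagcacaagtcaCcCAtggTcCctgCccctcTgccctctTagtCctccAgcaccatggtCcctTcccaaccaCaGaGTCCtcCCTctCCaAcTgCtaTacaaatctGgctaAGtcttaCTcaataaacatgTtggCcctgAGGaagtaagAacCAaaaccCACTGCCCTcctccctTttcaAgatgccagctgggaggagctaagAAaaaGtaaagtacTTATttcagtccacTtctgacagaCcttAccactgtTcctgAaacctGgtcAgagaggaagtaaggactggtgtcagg
Ly6g: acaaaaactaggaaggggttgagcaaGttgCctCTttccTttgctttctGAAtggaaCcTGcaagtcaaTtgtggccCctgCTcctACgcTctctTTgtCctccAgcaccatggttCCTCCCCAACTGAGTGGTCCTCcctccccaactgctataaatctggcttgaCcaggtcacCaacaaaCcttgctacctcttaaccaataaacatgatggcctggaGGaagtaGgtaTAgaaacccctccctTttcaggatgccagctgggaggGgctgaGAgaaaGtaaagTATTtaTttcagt
Where both windows have a base, 214 of 260 bases of the Ly6c2 window (82.3%) and 216 of 250 of the Ly6g window (86.4%) were identical to Ly6c1. Bases without a partner are left out of these shares but are among the capitals, 65 in Ly6c2 and 62 in Ly6g. The windows were poor in CG dinucleotides, the sites of most cytosine methylation in mammals, with 1 in Ly6c1, 0 in Ly6c2 and 1 in Ly6g. Of 32851 promoter windows, 14.1% held at most 1, and the median was 7. Neither GAAANNGAA, a core of the interferon-stimulated response element, nor TTCNNNGAA, the gamma-activated sequence, matched these windows on either strand. They matched 8.56% and 8.30% of all windows. No DNA methylation or factor binding was measured in these libraries.

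Tet2, the more abundant of the targeted genes, was at 2.57, 4.08 and 3.71 RPKM in the controls and 0.358, 0.238 and 0.202 RPKM after siRNA, where RPKM is a read count scaled to the length of the gene and the depth of sequencing. Its log2 fold change was -1.80 (SE 0.13, limma adjusted p = 2.88e-05). Tet1 was at 0.032, 0.098 and 0.05 against 0.001, 0.01 and 0.001 RPKM and was too low to be tested, where 0.001 is the lowest value the table lists. The depth of each library was estimated at 32400000 to 38500000 reads. The study names PDGFR among its BMMSC surface markers and lists only an antibody to PDGFRα, and Pdgfrb is given as well. Beside Ly6a, control means of the markers were 30.2 RPKM for Pdgfrb, 23.8 for Eng and 9.92 for Pdgfra. Mcam was at 1.31, Nt5e at 0.911 and Thy1 at 0.0610 RPKM. After siRNA the means, in the same order, were 5.19, 15.6, 0.944, 1.03, 0.639 and 0.0590 RPKM. Pdgfrb, Eng and Pdgfra passed the test as lower. The blood cell markers Cd34 and Ptprc (CD45) were at 1.10 and 52.6 RPKM in the controls and 1.14 and 53.0 RPKM after siRNA. By flow cytometry, which reads protein, the paper found BMMSCs of control and Tet1/Tet2 knockout mice negative for both. Those were other cells than the siRNA libraries, and the mix of cells in these libraries was not tested.

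Fold changes were tested with limma on log2(RPKM + 1), siRNA minus control, with Benjamini-Hochberg adjustment over the 13266 genes whose mean reached 0.1 RPKM. This scale understates the change of low genes. The Ly6 antigens were lower after Tet1/Tet2 siRNA in 5 of the 5 members tested, and none was higher. Over all genes tested, 29.8% were lower at an adjusted p under 0.05. Lower genes made up 66.9% of all genes called in either direction, a share that depended on the scaling (74.2% when libraries were set to equal sums, 52.7% under median ratio scaling, 42.1% with quantile normalization and 0.406% when centred on the stromal markers described further on). A total of 4 members, Ly6a, Ly6c1, Ly6c2 and Ly6e, were also altered and lower, against 5.63% of all genes. Altered means past the paper's thresholds (unadjusted p under 0.05 and a change over 2-fold). They were applied here to the limma p and to log2(RPKM + 1), which may differ from the paper's test and scale. With pseudocounts of 0.1 and 0.01, 5 members were altered and lower, Ly6i included. The share of all genes was not counted for those pseudocounts. In all 5 members tested the groups did not overlap, with siRNA below control, as in 35.9% of all genes. Ly6d was under the minimum level and was not tested.

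Ly6e, a GPI-anchored antigen known as a restriction factor against coronaviruses, was the most abundant member. It stood at 418, 402 and 351 RPKM in the controls and at 61.7, 72.5 and 63.3 RPKM in the siRNA libraries. The lowest control was 4.84-fold above the highest siRNA library. The means were 390.4 ± 34.6 and 65.9 ± 5.84 RPKM (SD, n = 3), a 5.93-fold difference. Its log2 fold change was -2.55 (SE 0.090, 95% confidence interval -2.76 to -2.34, limma adjusted p = 8.38e-07). Among the genes tested, Ly6e was at rank 102, 103 and 109 by level in the controls, and at 1150, 978 and 1122 in the siRNA libraries.

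Ly6a (Sca-1) showed the largest decrease of the members on the log2 scale. It stood at 168, 156 and 133 RPKM in the controls and at 9.50, 19.2 and 20.5 RPKM in the siRNA libraries. No library of a group reached the other group, and siRNA replicate 1 was well below the other siRNA libraries. The means were 152 ± 18.0 and 16.4 ± 6.01 RPKM (SD, n = 3), a 9.27-fold difference. Its log2 fold change was -3.20 (SE 0.25, 95% confidence interval -3.77 to -2.63, limma adjusted p = 3.52e-05), the 31st largest decrease among the genes tested.

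Ly6c1 was at 38.1, 31.2 and 28.2 RPKM in the controls and at 2.40, 4.60 and 4.61 RPKM in the siRNA libraries. Here too the groups were far apart and siRNA replicate 1 was the lowest. The means were 32.5 ± 5.07 and 3.87 ± 1.27 RPKM (SD, n = 3), an 8.39-fold difference, with a log2 fold change of -2.81 (SE 0.20, limma adjusted p = 2.31e-05). Ly6c2, its near copy, was lower in level, at 4.24, 4.05 and 2.73 RPKM in the controls and 0.486, 0.393 and 0.627 RPKM in the siRNA libraries. In Ly6c2 the siRNA replicate 1 was between the others. The means of Ly6c2 were 3.68 ± 0.821 and 0.502 ± 0.118 RPKM (SD, n = 3), a 7.32-fold difference. Its log2 fold change of -1.63 (SE 0.14, limma adjusted p = 5.33e-05) was smaller than its ratio of means, as the added 1 RPKM is larger than its siRNA level.

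**Figure D1:**
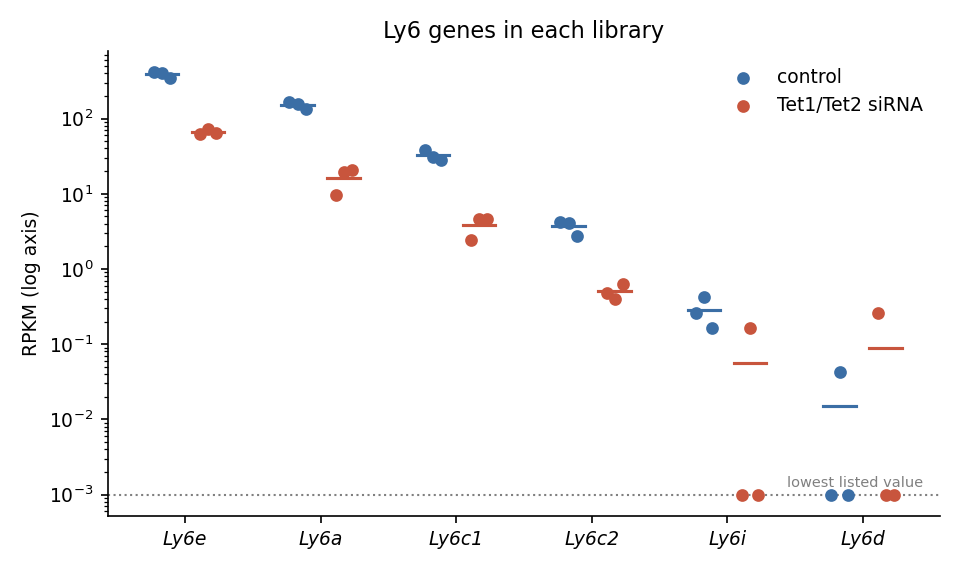
RPKM of each member in each library on a log axis, with control and Tet1/Tet2 siRNA libraries in separate colours, a short line at each group mean and a dotted line at the lowest listed value, 0.001 RPKM. Ly6e, Ly6a, Ly6c1 and Ly6c2 stand in 2 separate groups of libraries, Ly6i values are at most 0.421 RPKM and Ly6d is at or near the lowest listed value in most libraries.

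Ly6i, a less studied Ly6C-like antigen, was close to the limit of detection. It stood at 0.259, 0.421 and 0.166 RPKM in the controls and at 0.001, 0.165 and 0.001 RPKM in the siRNA libraries. The lowest control and the highest siRNA library were 1.01-fold apart. With its longest transcript, the values came to an estimated 11, 16 and 6 reads in the controls and 0, 7 and 0 reads in the siRNA libraries. The log2 fold change of Ly6i was -0.28 (SE 0.094, limma adjusted p = 0.0416). The call was lost without control replicate 1 (adjusted p = 0.0732), control replicate 2 (0.131), siRNA replicate 1 (0.130) or siRNA replicate 3 (0.111). Ly6d, an antigen of keratinocytes and of B-cell progenitors, was at 0.001, 0.043 and 0.001 RPKM in the controls and 0.263, 0.001 and 0.001 RPKM in the siRNA libraries. These are an estimated 0, 1 and 0 against 7, 0 and 0 reads, and a difference was not detectable at this depth.

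In the controls the order by level was Ly6e, Ly6a, Ly6c1, Ly6c2, Ly6i and Ly6d, and no neighbours in that order overlapped. In the siRNA libraries the first 4 places were the same, and Ly6i and Ly6d overlapped. The members summed to 628, 594 and 515 RPKM in the controls and 74.4, 96.9 and 89.0 RPKM in the siRNA libraries. Ly6e made up 66.5%, 67.7% and 68.2% of that sum in the controls and 83.0%, 74.8% and 71.1% in the siRNA libraries, and Ly6a 26.7%, 26.3% and 25.7% against 12.8%, 19.8% and 23.0%. The groups did not overlap in either share.

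Ratios of RPKM between members were taken within each library. The tests used differences of log2(RPKM + 1), which depend on the added 1 RPKM and, through it, on the scaling. Ly6a was 4.41, 5.00 and 4.71 times Ly6c1 in the controls and 3.96, 4.17 and 4.45 times in the siRNA libraries, which overlapped slightly. On the log2(RPKM + 1) scale this ratio fell by 0.39 without overlap (exact permutation test, two-sided, p = 0.1, the smallest that 3 against 3 can give, and 0.111 adjusted over 10 pairs), but by 0.19 and 0.17 with pseudocounts of 0.1 and 0.01. Ly6a was 0.402, 0.388 and 0.377 times Ly6e in the controls and 0.154, 0.265 and 0.324 times in the siRNA libraries. Those groups did not overlap, and the difference in log2 ratio was -0.65 (exact permutation p = 0.1, adjusted 0.111). Without siRNA replicate 1 it was -0.36. Ly6c1 was 0.0911, 0.0776 and 0.0801 times Ly6e in the controls and 0.0389, 0.0635 and 0.0728 times in the siRNA libraries, without overlap. The log2 ratio differed by -0.26 with overlap on the log2(RPKM + 1) scale (exact permutation p = 0.4), and by -0.52 and -0.55 with pseudocounts of 0.1 and 0.01 (exact permutation p = 0.1 for each). Without siRNA replicate 1 it was -0.062. No pair could pass the threshold with this number of libraries, and pairs with Ly6c2 or Ly6i turned direction with the pseudocount in 5 cases.

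**Figure D2:**
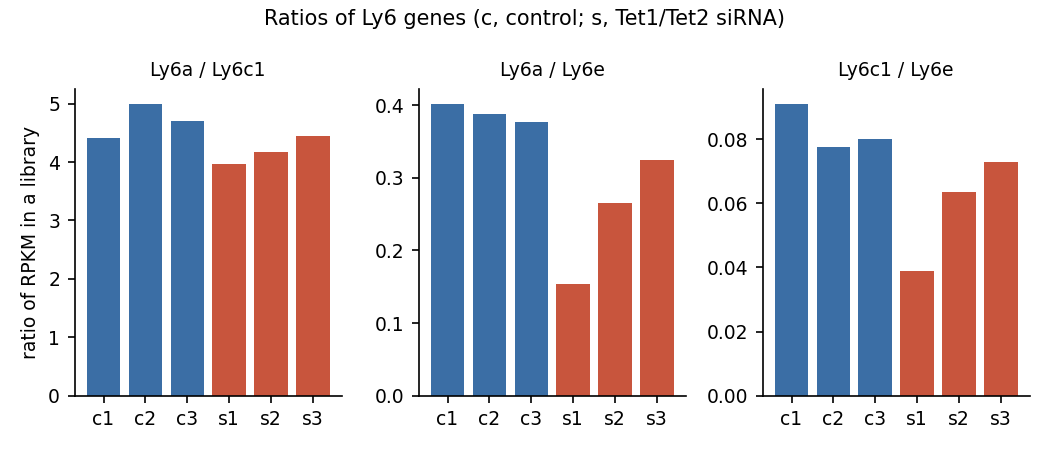
Ratio of RPKM between 2 members within each library (bars from 0; c, control; s, siRNA), each panel with its own axis. Ly6a/Ly6e runs from 0.377 to 0.402 in the controls and from 0.154 to 0.324 in the siRNA libraries, while Ly6a/Ly6c1 overlaps between the groups.

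The neighbouring genes were hardly read. Between the outer members, 23 genes are annotated and 13 were in the table, of which 5, all members, reached the minimum level. The 7 that are not members had means of at most 0.0678 RPKM. Ly6g, just outside this stretch, was at 0.029, 0.001 and 0.034 RPKM in the controls and at 0.001 RPKM in each siRNA library.

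**Figure D3:**
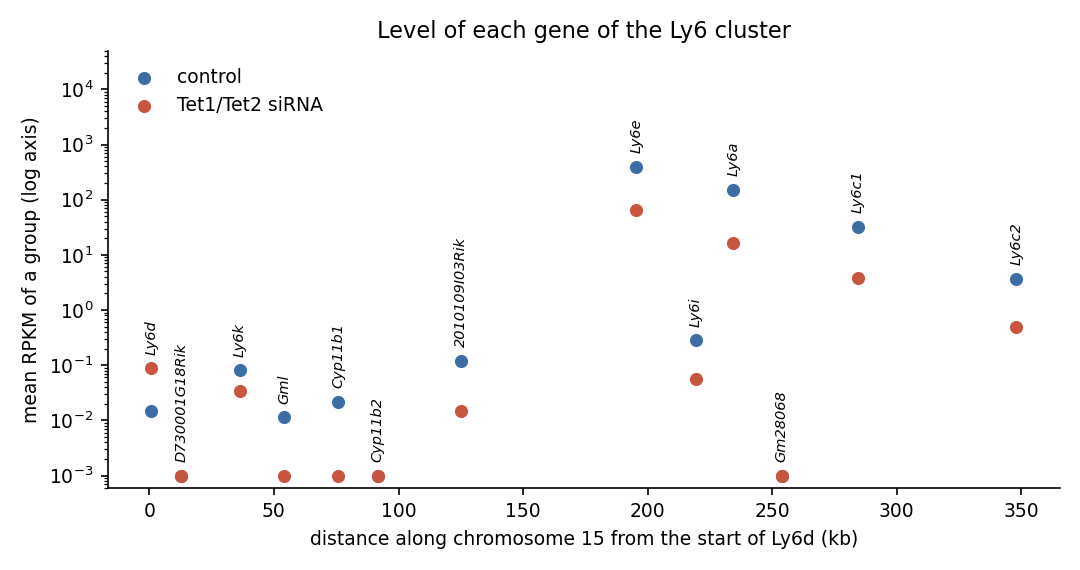
Mean RPKM in each group (log axis) against distance along chromosome 15 from the start of Ly6d, for the 13 genes of the stretch in the table. Ly6e, Ly6a, Ly6c1 and Ly6c2 rise above the rest, with the siRNA mean below the control mean, and a single point at the lowest value stands for both groups.

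Other genes of the Ly6/uPAR family were listed wherever they lie, including Ly6k and 2010109I03Rik between the outer members. Of the 33 in the table, 6 reached the minimum level, and 14 were at the lowest value in every library. Of these 6, 4 were lower, against 29.8% of all genes tested, and 0 were higher. The median log2 fold change was -0.52. On the log2(RPKM + 1) scale 0 were altered and lower, against 5.63% of all genes. Plaur, the urokinase receptor, was at a mean of 60.8 RPKM in the controls and 37.4 RPKM in the siRNA libraries (log2 fold change -0.69). The complement regulators Cd59a (-0.65) and Cd59b (-0.39) and the nicotinic receptor modulator Lynx1 (-0.82) were the others. Each of these log2 fold changes was smaller than those of Ly6a, Ly6c1, Ly6c2 and Ly6e.

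The genes most like each member were those whose centred log2(RPKM + 1) over the 6 libraries had the smallest root mean square difference from it, among 11067 genes whose mean reached 1 RPKM. For Ly6a they were Wisp2 (0.19), Ly6c1 (0.22), the chemokine Ccl2 (0.24), the Wnt antagonist Sfrp1 (0.25) and the matrix protein Thbs2 (0.26). For Ly6c1 they were Adm (0.15), which encodes adrenomedullin, Wisp2 (0.17), Ccl2, H2-Q4 and Efemp1 (each 0.21). For Ly6e they were Oas1g (0.067), Irgm1 (0.069), Gm12250 (0.078), BC094916 (0.092) and Ifi47 (0.093). Known interferon-induced genes such as Oas1g, Irgm1 and Ifi47 are among them. The remaining genes of this paragraph were not sorted by response to interferon. For Ly6c2 they were Gpx7 (0.063), Epsti1, H2-K1, Ddit3 and Ccl9, and for Ly6i Fbl (0.025), Mrps5, Ddx39, Adat3 and Fam219b. Ly6i rests on few reads, and its change on this scale is small because of the added 1 RPKM, so its nearest genes are ones that changed little. The added 1 RPKM shrinks the change of Ly6c2 as well. Its means differed 7.32-fold, and those of its nearest genes from 3.01-fold (Epsti1) to 4.84-fold (Gpx7).

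**Figure D4:**
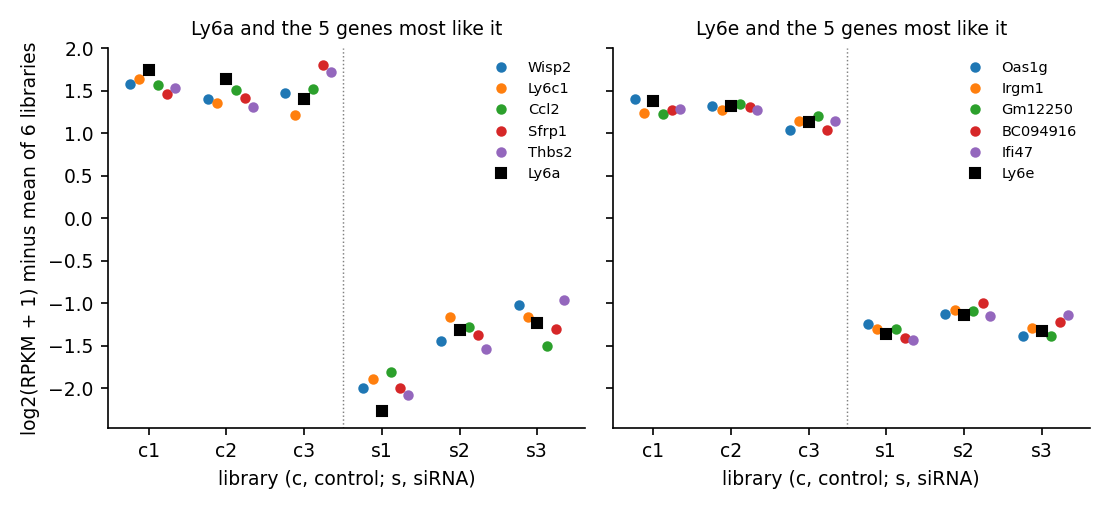
Centred log2(RPKM + 1) in each library (c, control; s, siRNA) for Ly6a and Ly6e, each with the 5 genes most like it. Of the siRNA libraries, Ly6a and the 5 genes nearest to it are lowest in replicate 1, as are Ly6e and 3 of its 5 (Irgm1, BC094916 and Ifi47).

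Gene lists that moved with the members were tallied beside them. Of 48 interferon-response genes, 48 were lower, their median log2 fold change was -2.39, and their sums were 3945 to 4325 RPKM in the controls and 727 to 830.3 RPKM in the siRNA libraries. The largest decreases included the regulator Irf7 (-5.05) and the ubiquitin-like Isg15 (-4.40). The smallest were Cxcl9 (-0.93) and Gbp4 (-0.41), low genes whose change this scale understates. Of 15 stromal markers tested, 12 were lower and 1, Vcam1 (1.67), was higher, with a median of -2.32 and sums of 2247 to 2689 against 422 to 720.0 RPKM. Col3a1 (-3.10), Postn (-3.10) and Pdgfra (-2.48) were among the lower. The median of all genes tested was -0.087.

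Lists of markers of other cells were tallied in the same way, beside 14.7% of all genes tested that were higher. That is 1953 genes, against 1525 when libraries were set to equal sums, 3607 under quantile normalization and 12987 when centred on the stromal list. Of 4 monocyte markers tested, 3 were higher and 1 lower, with sums of 1.49 to 2.16 RPKM in the controls and 4.33 to 5.38 RPKM in the siRNA libraries. Of 16 macrophage markers, 7 were higher, Lyz2 by 1.36, and 2 were lower, with sums of 9714 to 12785 and 18242 to 21404 RPKM. Most of the rise of that sum was Lyz2, with means of 4439 and 11321 RPKM, and the median log2 fold change of the list was 0.20. Of 7 endothelial markers tested, 2 were lower and 2 higher, with sums of 5.24 to 6.33 and 8.01 to 8.73 RPKM. The rise of that sum came from Vwf, with means of 1.93 and 6.10 RPKM, and the median log2 fold change of the list was -0.19. Of 3 granulocyte markers tested, 2 were higher and 1 lower, and S100a9 was at the lowest value in every library. Both lymphoid markers tested were higher, and the single keratinocyte marker tested did not pass, with Krt14, Krt1 and Krt17 at the lowest value. In bulk libraries, fewer cells of a type and less RNA per cell cannot be told apart, and the part of these cell types in the Ly6 values was not tested.

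**Figure D5:**
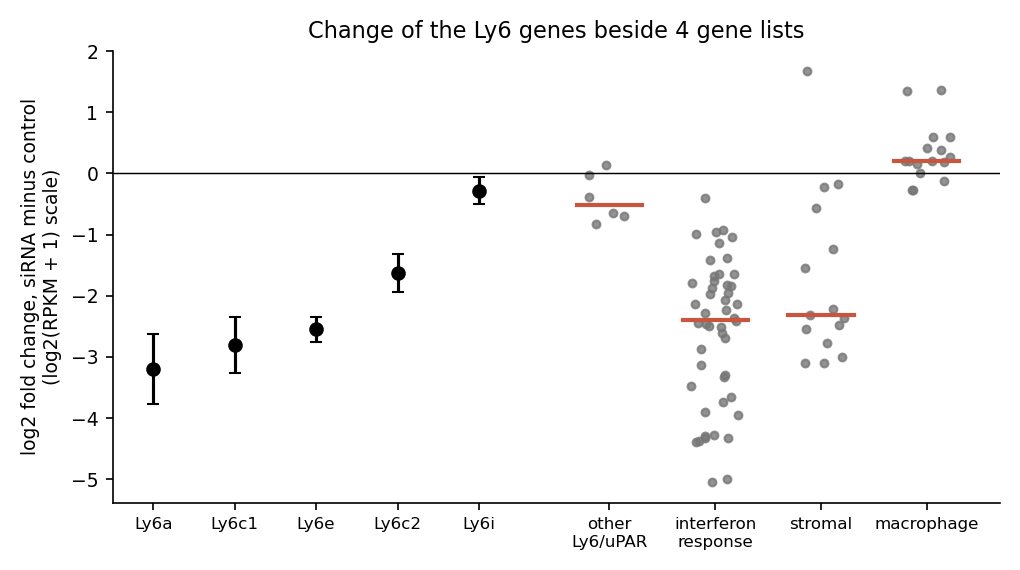
Log2 fold change, siRNA minus control on the log2(RPKM + 1) scale, of the 5 members tested (black points, bars show the 95% confidence interval) and of the genes tested in 4 lists (grey points, 1 per gene, with a red line at the list median). Ly6a, Ly6c1 and Ly6e lie between -3.20 and -2.55, the interferon and stromal medians at -2.39 and -2.32, and the macrophage median at 0.20.

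Set against the stromal list within each library, log2 of RPKM plus 0.01, Ly6a changed by -0.80, Ly6c1 by -0.63, Ly6c2 by -0.36 and Ly6e by -0.083 (exact permutation p = 0.2, 0.2, 0.4 and 0.6). Against the interferon list the changes were -0.54, -0.37, -0.10 and 0.18 (exact permutation p = 0.2, 0.5, 0.7 and 0.2). Groups overlapped in all 8 comparisons. When all genes were fitted with each library centred on the stromal list, Ly6a (log2 fold change -1.01, limma adjusted p = 0.00105) and Ly6c1 (-0.61, 0.0236) kept a lower call. Ly6e did not (log2 fold change -0.36, limma adjusted p = 0.290). Ly6c2 turned to 0.57 (limma adjusted p = 0.0298), or to -0.49 with a pseudocount of 0.01 (limma adjusted p = 0.113). That fit draws its variance from all genes, of which 12987 were called higher. As Ly6a and Ly6c1 overlapped between groups in the direct comparison, a fall beyond the stromal list was not established.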

How the data were processed

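The authors deposited 1 table of RPKM values, called FPKM in the methods, made with DNASTAR Lasergene from trimmed reads mapped to GRCm38. Which annotation release was used, whether strand was used and how multiply matching reads were handled are not given in the sources used here. A column with the authors' own comparison was not used. Of the rows of 37 repeated symbols, that with the highest mean was kept, and 27 rows with a number as symbol were not named. No read totals are given. Depth was estimated from low values of genes with 1 transcript, of which 46.6% to 59.7% lay within 0.1 of a whole read at the depth chosen for this match, so it is rough and no count test was run.

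The test on log2(RPKM + 1) was two-sided and used limma 3.58.1 (lmFit, eBayes with trend; R 4.3.3) with Benjamini-Hochberg adjustment over the 13266 genes whose mean reached 0.1 RPKM. The procedure was tested on simulated data. Ratios were compared with exact permutation tests in Python 3.11.15 (scipy 1.17.1). The members and lists (other Ly6/uPAR genes, interferon response, surface markers, stromal, macrophage, monocyte, granulocyte, endothelial, lymphoid and keratinocyte) were chosen with earlier results of these data known. The genes named were the members, Tet genes, list genes at either end of the changes of their list, surface markers and the 5 genes most like each member. Cd59b, Ly6g and the markers at the lowest value were added after their values were seen. Replicate numbers are shared between the groups. Deviations of same-numbered libraries from the group means correlated with r = 0.149, 0.117 and 0.462 across genes, and those of other numbers with r from -0.378 to 0.332, so the pairing is not clear-cut, and a fit with the number as a block was added. Alternatives were other pseudocounts, filters, scalings and variance models, the block, each library left out and summed duplicate rows. Centring with a pseudocount of 0.01 and the values relative to lists were chosen after seeing the data. Promoter windows are from RefSeq. A protein comparison was not run.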

Additional observations from a re-analysis of the deposited data

How the results depend on the processing

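Ly6a and Ly6c1 kept their direction and their side of the threshold in all 20 alternatives, with log2 fold changes from -3.39 to -0.93 and from -3.12 to -0.61. With the replicate block, which pairs same-numbered libraries, the limma adjusted p was 1.98e-05 for Ly6a and 0.0103 for Ly6i, and no call of a member changed. Leaving out each library in turn gave -3.39 to -2.87 for Ly6a, -2.93 to -2.57 for Ly6c1, -1.78 to -1.53 for Ly6c2, -2.62 to -2.50 for Ly6e and -0.35 to -0.20 for Ly6i.

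Centring each library on the stromal list moved the median of all genes from -0.087 to 2.11, or 2.24 with a pseudocount of 0.01, and quantile normalization to 0.055. In that order of pseudocounts, it gave Ly6c2 0.57 and -0.49, Ly6e -0.36 and -0.21, Ly6i 1.91 and -0.95 and Tet3 2.31 and 2.49. Tet2 was at 0.39 (limma adjusted p = 0.136) and -1.31 (7.02e-05). The members lower fell from 5 to 2 and 2, the members altered and lower from 4 to 1 and 0, and all genes lower from 3952 to 53 and 141. Quantile normalization left 2627 genes lower. The cause was not tested.

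Ly6i lost its call with no filter (-0.28), median ratio scaling (-0.26), quantile normalization (-0.20), eBayes without trend (-0.28) and gene-wise variance (-0.28), and was not tested at a mean of 1 RPKM. With a pseudocount of 0.01, log2 ratio differences turned to 0.019 for Ly6a/Ly6i, 0.19 for Ly6c1/Ly6i, 0.46 for Ly6c2/Ly6i, 0.74 for Ly6e/Ly6i and -0.28 for Ly6c2/Ly6e (-0.076 with 0.1). Values of a few reads, as in Ly6i and Ly6d, limit what depth can show.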
